A study of Mus musculus with 8 samples.

Results

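The stretch of chromosome 4 from 90 to 110 Mb (mm10) was examined as a candidate for the Sle2 interval of the lupus-prone B6.SLE123 mouse. Its members were chosen by position: every gene of the deposited table on chromosome 4 that starts at or after 90000000 and before 110000000, with 1 gene left out. The stretch itself was selected on the strain difference measured in these samples, so the values that follow describe its genes and do not test whether the stretch stands apart. It holds 79 of the 13786 genes in the table, 23 in its first 10 Mb and 56 in its second 10 Mb. GENCODE M21 annotates 134 protein-coding genes there, and 55 of them have no row in the table. The first member, Tusc1, starts at 93334138.

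CD11c-positive splenocytes were isolated from 4 C57BL/6 and 4 B6.SLE123 mice, all female, 7 weeks old and untreated, and RNA sequencing was performed on them. The integrin chain CD11c, encoded by Itgax, marks dendritic cells, but some macrophages and lymphocytes also carry it. B6.SLE123 is a triple congenic strain, obtained as B6.NZMSLE1/SLE2/SLE3, in which Sle1, Sle2 and Sle3 from a lupus-prone NZM strain were placed on the C57BL/6 genome. Controls carried no such interval, and the borders of the intervals and the genotypes of these mice were not analysed here. Each library held between 25563070 and 37367094 counts, and no library stood apart in total count. In the labels the strain number of the genotype field rises from sample to sample, so sample names and the methods were used to assign strains.

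Sle2 is one of the mapped susceptibility loci of the NZM2410 lupus model and has been linked with B cell hyperactivity and expansion of B-1 cells. A congenic interval carries every gene between its borders in the donor version, whatever each gene does. The genes of this part of chromosome 4 have unrelated roles, from cytokine signalling (Jak1, the leptin receptor Lepr) and transcription (Jun, Nfia) to replication (Orc1), lipid metabolism and endocytosis.

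Reference sequence is shown for 4 members on which the description turns, a pair that was lower and a pair that was higher in B6.SLE123 mice. Each run is read 5′ to 3′ on the strand of the gene and lies before its RefSeq start site in GRCm38.p6, with bases of annotated exons left out. Capitals mark the letters of 7 promoter motifs, searched on both strands: the TATA box TATAAA, the box CCAAT, the GC box GGGCGG, the E box CACGTG, the AP-1 site TGANTCA, the ETS core GAGGAAG and the interferon response letters GAAANNGAA. No motif holds another. This is the reference genome, and the donor alleles of B6.SLE123 were not analysed here.
Mroh7, chr4:106727977-106728180, minus strand, inside an intron of longer Mroh7 models: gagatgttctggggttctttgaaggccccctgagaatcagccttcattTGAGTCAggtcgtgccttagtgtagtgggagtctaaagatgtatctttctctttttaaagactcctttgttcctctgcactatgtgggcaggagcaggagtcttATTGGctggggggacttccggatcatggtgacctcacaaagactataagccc
Raver2, chr4:101068788-101068982, plus strand, in no annotated gene: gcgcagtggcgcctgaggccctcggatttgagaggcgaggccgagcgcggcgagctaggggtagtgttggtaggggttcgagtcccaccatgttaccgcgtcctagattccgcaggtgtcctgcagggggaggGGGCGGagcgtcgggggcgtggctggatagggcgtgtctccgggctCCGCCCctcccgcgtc
Echdc2, chr4:108165187-108165436, plus strand, in no annotated gene: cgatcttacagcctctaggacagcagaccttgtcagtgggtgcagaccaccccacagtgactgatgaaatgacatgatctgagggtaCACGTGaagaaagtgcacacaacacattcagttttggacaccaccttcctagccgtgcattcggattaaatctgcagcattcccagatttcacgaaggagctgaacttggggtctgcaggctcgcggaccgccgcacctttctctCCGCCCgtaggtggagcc
Orc1, chr4:108579337-108579422, plus strand, the whole space of 86 bases between Prpf38a and Orc1: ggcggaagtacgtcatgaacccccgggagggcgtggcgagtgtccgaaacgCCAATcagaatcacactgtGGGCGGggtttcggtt
The RefSeq promoter table, whose windows run from 250 bases before to 50 bases after a start, held 86 entries for 67 of the 79 members. GGGCGG was present in 64.0% of the member windows and in 35.7% of all 32851 windows. TATAAA was present in 4.65% of member windows and 13.6% of all windows, and CCAAT in 41.9% and 37.4%. CACGTG was found in 8.14% of member windows against 7.15% of all, TGANTCA in 2.33% against 7.81%, GAGGAAG in 8.14% against 13.6% and GAAANNGAA in 3.49% against 8.56%. The median GC content of the 250 bases before the start was 58.2% for members and 52.4% for all windows. Members have a row in the table only with a median of 5 or more counts in the strain with the larger median. The set of all windows was not limited in this way. Members were not compared with promoters of the other genes in the table, so these shares do not show a trait of the stretch.

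The quasi-likelihood test of edgeR was run for the strains over all genes of the table, and a gene was called at an adjusted p below 0.05. Levels are given as CPM, counts per 1000000 of the TMM-scaled library size, and log2 fold changes are B6.SLE123 over C57BL/6 with their standard errors (SE). Of the 79 members, 47 were called, 19 higher and 28 lower in B6.SLE123 mice. Over all genes 53.4% were called, 26.7% higher and 26.6% lower. A change of more than 2-fold, which belongs to the definition of a differentially expressed gene in the methods of the study, was also reached by 19 members, 4 higher and 15 lower. That share was 24.1% of members beside 11.1% of all genes, of which 2.76% were higher and 8.29% lower. Values of the 4 mice of one strain all lay above or below those of the other for 44 members, 17 higher and 27 lower, beside 48.9% of all genes, 24.4% higher and 24.5% lower. Because the stretch was picked for these differences, nothing is read from the counts.

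**Figure D1:**
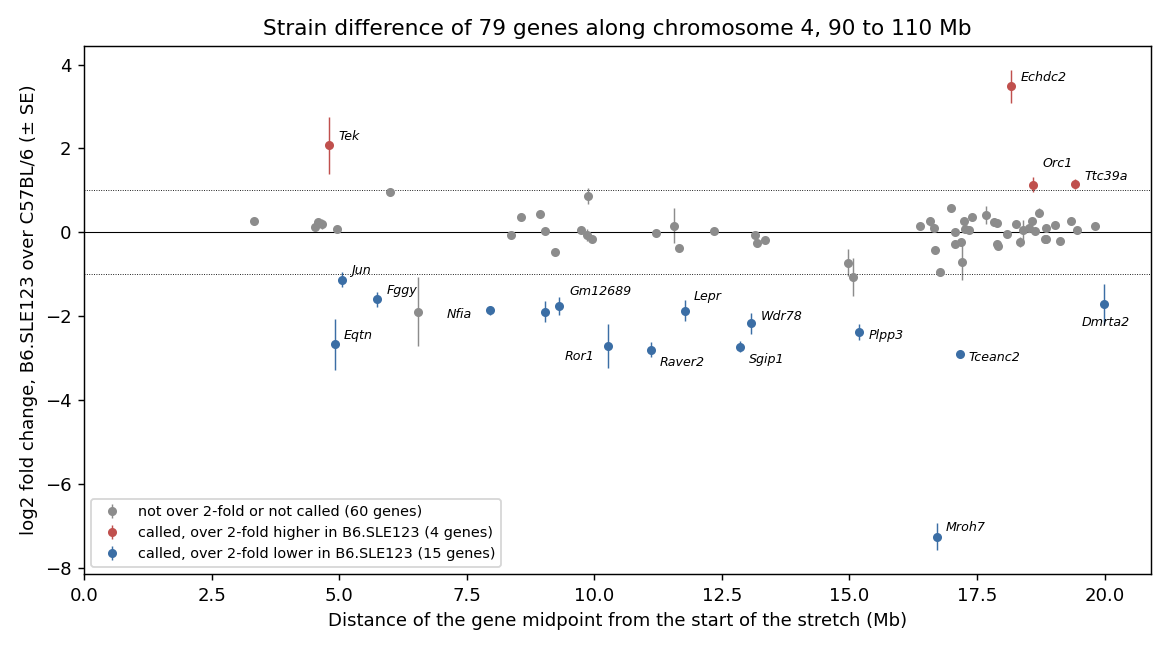
Log2 fold change (B6.SLE123 over C57BL/6, error bars ± SE) of the 79 genes against the distance of the gene midpoint from the start of the stretch in Mb; dotted lines mark a 2-fold change. The 4 genes over 2-fold higher (red) and the 15 over 2-fold lower (blue) lie among 60 others (grey), most of them near 0, with Mroh7 at -7.26 and Echdc2 at 3.48.

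An absolute log2 fold change under 0.5 was found for 52 of 79 members (65.8%), beside 72.0% of all genes, and the median over members was -0.002, as over all genes. The lower quartile was -0.59 for members and -0.30 for all genes. Strongly different genes were scattered between such neighbours from Tek, which starts at 94739289, to the last member, Dmrta2. No member before Tek was over 2-fold different. In order along the stretch, the members over 2-fold different that are named here were Tek, Eqtn, Jun, Fggy, Nfia, Gm12689, Ror1, Raver2, Lepr, Sgip1, Wdr78, Plpp3, Mroh7, Tceanc2, Echdc2, Orc1, Ttc39a and Dmrta2. Every one of these from Eqtn to Tceanc2 was lower in B6.SLE123 mice, and the 4 that were higher lay at either side of that run. Reads of both strains were aligned to mm10, and the part of donor sequence differences in these counts was not tested. In the first 10 Mb 7 of 23 members were over 2-fold different (30.4%), and in the second 12 of 56 (21.4%).

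These shares also differed with the level of a gene. Levels in C57BL/6 mice are one side of the strain difference on which the stretch was selected. In these mice the median member was at 4.98 CPM per kb of exon and the median gene of the table at 5.56. Members of the first 10 Mb had a median of 1.52 CPM per kb and those of the second 5.91. Between the 4 C57BL/6 mice the median coefficient of variation was 6.76% for members and 6.79% for all genes. Among the 17 members with a mean below 100 counts in the higher strain, 9 were over 2-fold different, beside 23.2% of the 2962 such genes in the table. Among the 62 members with at least 100 counts, 10 were over 2-fold different, beside 7.74% of 10824 genes.

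**Figure D2:**
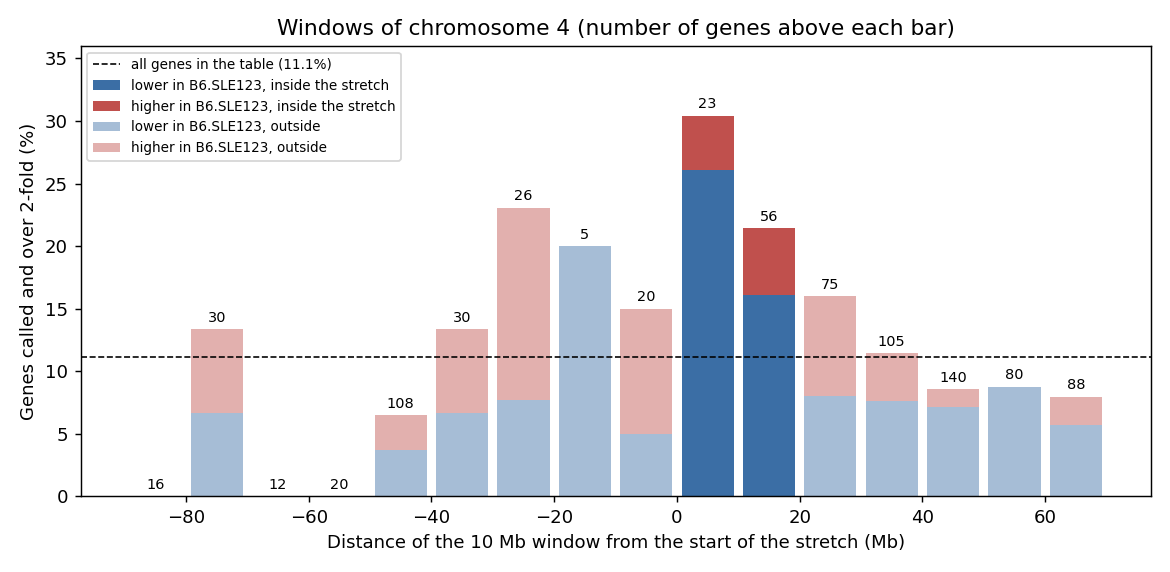
Percentage of genes called and over 2-fold different in 10 Mb windows of chromosome 4, placed by distance from the start of the stretch, with the number of genes above each bar and 11.1% of all genes as a dashed line. The 2 windows of the stretch stand at 30.4% and 21.4%, and windows outside it lie between 0 and 23.1%.

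On the rest of chromosome 4, 75 of 755 genes (9.93%) were over 2-fold different. The window from 60 to 70 Mb held 6 of 26 such genes (23.1%), a share above that of the second 10 Mb of the stretch, and the windows adjoining the stretch held 3 of 20 (15%) before it and 12 of 75 (16%) after it. Other windows chosen for the same difference gave 27.4% of 106 genes from 170 to 180 Mb on chromosome 1, 30.2% of 129 genes from 40 to 50 Mb on chromosome 7, and 21.6% of 102 genes from 10 to 20 Mb on chromosome 7. Just inside the first edge, Tusc1, Caap1 and Plaa had log2 fold changes of 0.26, 0.13 and 0.24, and the 3 genes just before the stretch were at 0.09, 0.75 and 1.05. At the far end, Rnf11, Faf1 and Dmrta2 were at 0.06, 0.14 and -1.71, and the 3 genes after it at -0.02, -0.35 and 0.13.

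The labels call the sorted cells dendritic cells, and the preparations differed between strains in markers of other cells. Red pulp macrophage markers were called lower for 17 of 17 genes in B6.SLE123 mice (median log2 fold change -2.40), and their summed level was 18068, 16141, 20895 and 18073 CPM in the C57BL/6 mice and 3164, 2427, 4199 and 4698 CPM in the B6.SLE123 mice. None of these markers was at 0. Of 10 core dendritic cell genes, among them Itgax, Flt3 and Zbtb46, 9 were called higher (median 0.27). The summed level of the 10 was from 28624 to 33244 CPM in C57BL/6 and from 35180 to 37155 CPM in B6.SLE123 mice. All 12 genes of a proliferation list were called higher (median 0.98), with a summed level from 554 to 618 CPM in C57BL/6 and from 1040.0 to 1414 CPM in B6.SLE123 mice. Of 10 type 1 conventional dendritic cell genes 8 were called higher and 1 lower, and of 11 erythroid genes 1 was higher and 7 lower. Among B cell genes 1 of 10 was called higher and 7 lower, among type 2 conventional dendritic cell genes 3 of 10 were lower, and among plasmacytoid dendritic cell genes 1 of 10 was higher and 5 lower. For plasma cells (8 genes) 3 were higher and 2 lower, for T cells (10 genes) 3 higher and 1 lower, for NK cells (9 genes) 1 lower, for neutrophils (9 genes) 3 higher and 4 lower, and for monocytes (10 genes) 3 lower. The T cell genes Cd8a, Cd5 and Tcf7 were called higher and Lat lower, and Cd3d, Cd3e and Cd3g were not called. Fewer cells of a type and less RNA per cell cannot be told apart in such bulk samples, and the part of these markers in the differences of the members was not tested.

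**Figure D3:**
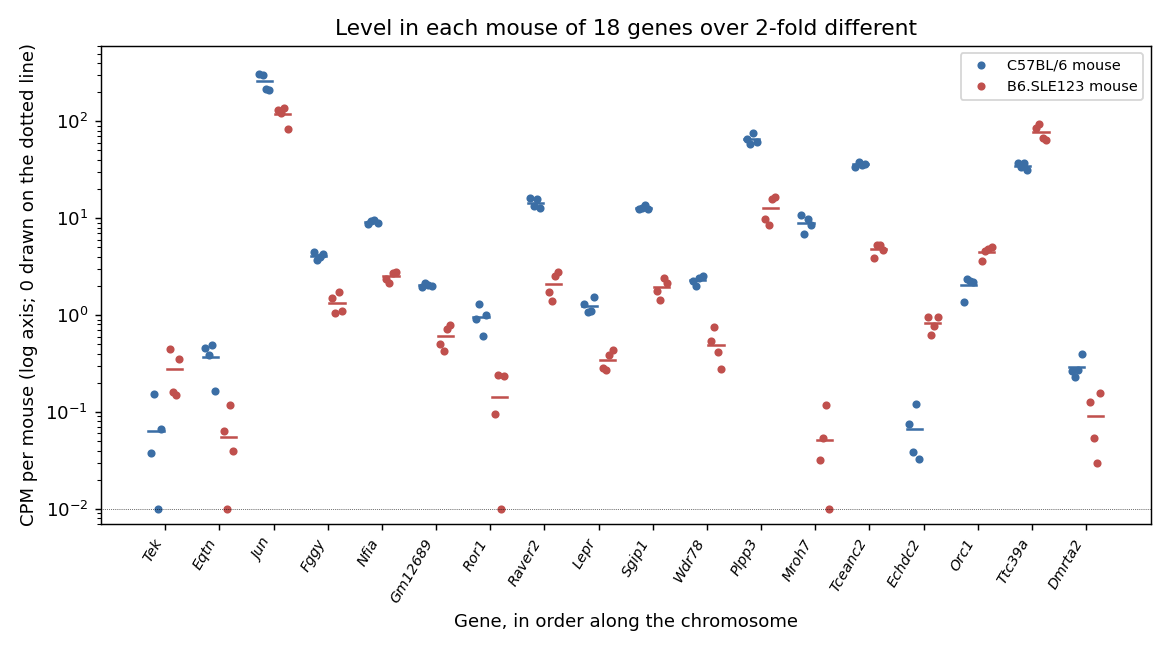
CPM in each of the 4 C57BL/6 (blue) and 4 B6.SLE123 mice (red) on a log axis for 18 of the 19 genes over 2-fold different, in order along the chromosome; short lines are means and a mouse at 0 sits on the dotted line. The strains do not overlap for any of these genes except Tek, and Mroh7 shows the widest separation.

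Among the 9 cytokine and growth factor signalling genes in the table, 1 was called higher and 4 lower. Over all genes 26.7% were called higher and 26.6% lower, and these shares stand beside the counts of every list given here. No list was tested against them. Jak1, the tyrosine kinase that relays signals of interferon and many cytokine receptors, lies from 101152367 to 101265282 on the minus strand and was the most abundant member by CPM. In the C57BL/6 mice Jak1 was measured at 344, 339, 341 and 327 CPM, and in the B6.SLE123 mice at 344, 316, 327 and 349.8 CPM. The strains overlapped, and the log2 fold change was -0.02 (SE 0.04). The 4 C57BL/6 mice had 193, 176, 199 and 201 CPM of Leprot and the 4 B6.SLE123 mice had 149, 143, 143 and 158 CPM. Leprot, which lies before the leptin receptor gene on the chromosome and regulates receptor traffic to the cell surface, was lower in every B6.SLE123 mouse, by a log2 fold change of -0.37 (SE 0.05). Levels of Lepr were 1.29, 1.07, 1.1 and 1.52 CPM in C57BL/6 and 0.285, 0.269, 0.385 and 0.433 CPM in B6.SLE123 mice. This leptin receptor gene was scarce in either strain, at 0.177 CPM per kb of exon in C57BL/6 mice, with no overlap and a log2 fold change of -1.87 (SE 0.25). CPM values of Pde4b were 175, 174, 168 and 183 in C57BL/6 and 174, 182, 179 and 177 in B6.SLE123 mice. Pde4b, a phosphodiesterase that breaks down cAMP in leukocytes, overlapped between strains (log2 fold change 0.03, SE 0.04).

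Ror1 and Tek of this list were scarce. Ror1 was at 0.908, 1.31, 0.61 and 0.993 CPM in the C57BL/6 mice and at 0.0949, 0.242, 0 and 0.236 CPM in the B6.SLE123 mice. Ror1, a receptor for Wnt5a, rested on 108 counts over the C57BL/6 mice and 18 over the B6.SLE123 mice, a ratio 6.65-fold lower (95% counting interval 4.02 to 11.6). In the C57BL/6 mice Tek was measured at 0.0378, 0.154, 0 and 0.0662 CPM, and in the B6.SLE123 mice at 0.443, 0.161, 0.148 and 0.354 CPM. Tek, the angiopoietin receptor of endothelial cells, had 7 counts over the C57BL/6 mice and 34 over the B6.SLE123 mice, 4.38-fold higher (95% counting interval 1.91 to 11.7), and its values overlapped between strains. Lrp8, a receptor for apolipoprotein E and reelin, was at 62.4 ± 8.61 CPM (SD, n = 4) for C57BL/6 and 73.5 ± 6.37 CPM (SD, n = 4) for B6.SLE123 mice and was not called. Prkaa2, the catalytic alpha 2 subunit of AMP-activated kinase, averaged 0.233 ± 0.0853 CPM (SD, n = 4) and 0.107 ± 0.0506 CPM (SD, n = 4). Of 13 other Janus kinase, STAT and feedback genes elsewhere in the genome, 7 were called higher, 0 lower and 6 were not called. Jak2 had a log2 fold change of 0.57 and Stat3 of 0.45, beside -0.02 for Jak1.

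The 5 genes listed as transcription factors and DNA-binding proteins split, with 3 lower and 2 higher. Jun, the AP-1 subunit and an immediate early gene, is a gene of 1 exon from 95049034 to 95052222, and an antisense transcript overlaps it, so its reads are uncertain. The 4 C57BL/6 mice had 311, 299, 218 and 209.9 CPM of Jun and the 4 B6.SLE123 mice had 132, 121, 139 and 82.5 CPM. All B6.SLE123 values lay under all C57BL/6 values, the spread within each strain was wide, and the log2 fold change was -1.13 (SE 0.17). Most of the difference in the summed counts of the stretch was in Jun. Members took 0.370%, 0.368%, 0.358% and 0.353% of all counts in the C57BL/6 mice and 0.349%, 0.346%, 0.346% and 0.338% in the B6.SLE123 mice. Without Jun the shares were 0.339%, 0.338%, 0.336% and 0.333% in C57BL/6 mice and 0.336%, 0.334%, 0.332% and 0.330% in B6.SLE123 mice, and the strains then overlapped. Of 12 other AP-1 family genes 6 were called lower and 2 higher, with Fos at -1.28 (SE 0.28) and Fosl2 at -1.05 (SE 0.17).

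Levels of Nfia were 8.74, 9.33, 9.48 and 8.84 CPM in C57BL/6 and 2.37, 2.15, 2.75 and 2.76 CPM in B6.SLE123 mice. Nfia, a nuclear factor I protein with roles in glial and myeloid development, was separate between strains with a log2 fold change of -1.86 (SE 0.11). CPM values of Ssbp3 were 29.6, 30.9, 32.2 and 29.6 in C57BL/6 and 46.1, 47.6, 47.6 and 39.9 in B6.SLE123 mice. Ssbp3, which binds LDB1 in transcription complexes, was higher in every B6.SLE123 mouse, with a log2 fold change of 0.57 (SE 0.06). Tusc1 was at 15 ± 1.18 CPM (SD, n = 4) and 18 ± 1.88 CPM (SD, n = 4) with overlap between strains, and its call was lost in 4 of 8 fits with a mouse removed. Dmrta2, a DM-domain factor at the far edge, was scarce at 0.292 ± 0.0728 CPM (SD, n = 4) and 0.0918 ± 0.0601 CPM (SD, n = 4).

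Of 9 lipid and fatty acid genes 5 were called lower and 1 higher (median log2 fold change -0.27). Plpp3 was at 65.1, 57.7, 76.3 and 61.2 CPM in the C57BL/6 mice and at 9.81, 8.49, 15.7 and 16.7 CPM in the B6.SLE123 mice. Plpp3, a phosphatase of lysophosphatidic acid and sphingosine 1-phosphate, lies from 105157347 to 105232764, overlaps no annotated gene and had a log2 fold change of -2.37 (SE 0.19). In the C57BL/6 mice Acot11 was measured at 38, 33.4, 42.9 and 39.2 CPM, and in the B6.SLE123 mice at 19, 18.3, 21.8 and 19.9 CPM. For Acot11, an acyl-CoA thioesterase, the strains were again separate and the log2 fold change was -0.96 (SE 0.08). Smaller differences were called lower for Cpt2, the inner membrane enzyme of the carnitine shuttle (log2 fold change -0.34, SE 0.07), Osbpl9, an oxysterol-binding protein relative (log2 fold change -0.22, SE 0.04), and Cyb5rl (log2 fold change -0.27, SE 0.08). The sterol carrier gene Scp2, at 175 ± 5.19 CPM (SD, n = 4) and 169 ± 5.6 CPM (SD, n = 4), was not called. Cyp2j6, the only one of the Cyp2j genes in the table, was at or below 0.422 CPM in every mouse.

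Echdc2 went the other way. It encodes a mitochondrial protein of the enoyl-CoA hydratase family and lies on the plus strand from 108165437 to 108179308. The 4 C57BL/6 mice had 0.0757, 0.0384, 0.122 and 0.0331 CPM of Echdc2 and the 4 B6.SLE123 mice had 0.949, 0.618, 0.769 and 0.945 CPM. It had 8 counts over all C57BL/6 mice and 103 over the B6.SLE123 mice, 11.6-fold higher (95% counting interval 5.68 to 27.6), an interval that covers counting error only. At 0.359 CPM per kb of exon in B6.SLE123 mice it was a scarce transcript. Of 16 other carnitine shuttle and fatty acid oxidation genes 3 were called higher and 7 lower (median log2 fold change -0.17), and of 22 cholesterol genes 3 were higher and 9 lower (median -0.16).

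Genes of the ubiquitin system and protein turnover counted 4 of 8 called higher and 1 lower, each by under 2-fold. Levels of Usp1 were 72.2, 76, 69.9 and 74.3 CPM in C57BL/6 and 103, 102, 95.8 and 97 CPM in B6.SLE123 mice. Usp1, the deubiquitinase of FANCD2 and PCNA, did not overlap between strains (log2 fold change 0.45, SE 0.04). All 8 genes listed as USP1 and Fanconi partners elsewhere in the genome were called higher, with Fanci at 1.39 (SE 0.10) and Pcna at 0.53 (SE 0.04). The 12 genes of the proliferation list were also all called higher, and their part in these values was not tested. CPM values of Nrd1 were 232, 232, 229 and 227 in C57BL/6 and 249.9, 269, 254 and 256 in B6.SLE123 mice. Nrd1, the peptidase nardilysin, had a log2 fold change of 0.16 (SE 0.04), and its 3′ end overlaps Osbpl9 by 633 bases. Plaa (log2 fold change 0.24, SE 0.05), which acts with the segregase VCP, and Zyg11b (log2 fold change 0.19, SE 0.05), a substrate receptor of a cullin ligase, were also called higher. Atg4c, a protease of autophagy, was lower, with 28.8 ± 1.61 CPM (SD, n = 4) for C57BL/6 and 20.8 ± 1.57 CPM (SD, n = 4) for B6.SLE123 mice and no overlap (log2 fold change -0.47, SE 0.07). Usp24 was at 140.4 ± 10.6 CPM (SD, n = 4) and 155 ± 5.95 CPM (SD, n = 4) and not called, as were Faf1 and Rnf11.

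Of 4 genes listed under cell division and replication, 2 were higher. Orc1, the largest subunit of the origin recognition complex, lies from 108579423 to 108614833, and a noncoding transcript of the opposite strand overlaps its exons. Orc1 was at 1.36, 2.38, 2.23 and 2.22 CPM in the C57BL/6 mice and at 3.58, 4.6, 4.76 and 5.08 CPM in the B6.SLE123 mice. The strains were separate, and the log2 fold change was 1.13 (SE 0.18), or 0.98 without C57BL/6 replicate 1, the lowest of its strain. Among 14 other origin licensing genes 11 were called higher and 0 lower (median log2 fold change 0.75), with Cdc6 at 1.10 (SE 0.11), Mcm5 at 1.06 (SE 0.06) and the subunit gene Orc2 at 0.35 (SE 0.06). All genes of the proliferation list were higher as well, and their part in the value of Orc1 was not tested. Ndc1, a nucleoporin that anchors the nuclear pore, was at 14.9 ± 0.708 CPM (SD, n = 4) and 19 ± 2.03 CPM (SD, n = 4) (log2 fold change 0.35, SE 0.08). Itgb3bp, a centromere protein, and Caap1 were not called.

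Membrane traffic and endocytosis held 4 genes called higher and 2 lower of 9. In the C57BL/6 mice Hook1 was measured at 14.1, 14.4, 12.8 and 11.3 CPM, and in the B6.SLE123 mice at 25.6, 28.1, 23.1 and 25.9 CPM. Hook1, an adaptor that links endosomes to microtubules, had no overlap between strains and a log2 fold change of 0.97 (SE 0.09), just under 2-fold. The 4 C57BL/6 mice had 161, 168, 157 and 159 CPM of Eps15 and the 4 B6.SLE123 mice had 207, 198, 191 and 186 CPM. This clathrin adaptor gene was higher in every B6.SLE123 mouse (log2 fold change 0.28, SE 0.04). Zfyve9, an endosomal anchor of SMAD signalling, was at 19.8 ± 1.69 CPM (SD, n = 4) and 27.3 ± 4.4 CPM (SD, n = 4) (log2 fold change 0.46, SE 0.11), and Patj, a polarity protein, at 16.3 ± 1.9 CPM (SD, n = 4) and 21.1 ± 1.0 CPM (SD, n = 4) (log2 fold change 0.38, SE 0.08). Levels of Sgip1 were 12.4, 12.8, 13.7 and 12.4 CPM in C57BL/6 and 1.77, 1.42, 2.43 and 2.17 CPM in B6.SLE123 mice. Sgip1, a regulator of clathrin-mediated endocytosis best known from brain, was lower without overlap (log2 fold change -2.73, SE 0.14). Tmem59 was lower by less, with a log2 fold change of -0.23 (SE 0.05). Yipf1, Cc2d1b and Dnajc6 were not called, with log2 fold changes of 0.05, 0.04 and 0.15.

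RNA processing genes gave 2 higher and 1 lower of 5. CPM values of Raver2 were 16, 13.4, 15.7 and 12.8 in C57BL/6 and 1.74, 1.4, 2.52 and 2.76 in B6.SLE123 mice. Raver2, a ribonucleoprotein that binds the splicing repressor PTB, lies from 101068983 to 101152370 and was lower in every B6.SLE123 mouse (log2 fold change -2.80, SE 0.18). Prpf38a, a spliceosome protein, was at 25.8 ± 1.59 CPM (SD, n = 4) and 31.3 ± 0.891 CPM (SD, n = 4) (log2 fold change 0.27, SE 0.06), and Magoh, a core protein of the exon junction complex, at 28.3 ± 1.92 CPM (SD, n = 4) and 32.9 ± 2.88 CPM (SD, n = 4) (log2 fold change 0.22, SE 0.07). Tut4, a uridylyl transferase, and Btf3l4 were not called. Among 5 genes listed as mitochondrial only Oma1, a stress-activated protease of the inner membrane, was called, with a log2 fold change of -0.20. Mrpl37, Pars2, Coa7 and Txndc12, the last a protein of the endoplasmic reticulum, lay between -0.24 and 0.11. Of 6 genes of cilia and cytoskeleton, Wdr78, an axonemal dynein protein, was lower, at 2.31 ± 0.23 CPM (SD, n = 4) for C57BL/6 and 0.495 ± 0.202 CPM (SD, n = 4) for B6.SLE123 mice. Efcab7 was higher, at 1.41 ± 0.37 CPM (SD, n = 4) and 2.54 ± 0.196 CPM (SD, n = 4), and lies over the opposite strand of Itgb3bp. Ift74 and Hspb11 of the intraflagellar transport complex and Fyb2 were not called.

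**Figure D4:**
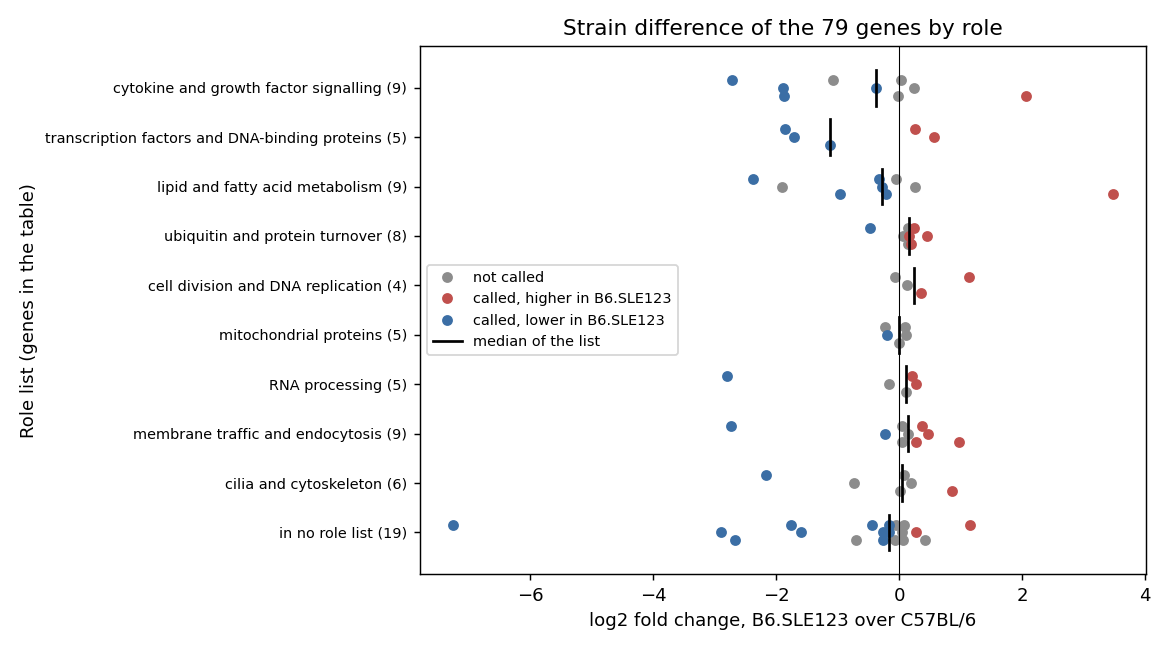
Log2 fold change (B6.SLE123 over C57BL/6) of the 79 genes by role list, with the number of genes in the table in brackets; red and blue points were called higher and lower, grey were not called, and the bar is the median of the list. Among the lists, the 5 genes listed as transcription factors and DNA-binding proteins have the lowest median at -1.13. The 4 listed under cell division and DNA replication have the highest at 0.24. These lists are small and were drawn up with earlier results known.

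Of the 79 members 19 stood in no role list, and the largest fall of the stretch was one of them. Mroh7, a maestro heat-like repeat gene, lies on the minus strand from 106680417 to 106730925 and overlaps no annotated gene. Mroh7 was at 10.7, 6.95, 9.85 and 8.47 CPM in the C57BL/6 mice and at 0.0316, 0.0538, 0.118 and 0 CPM in the B6.SLE123 mice. In counts this was 1044 over the C57BL/6 mice and 7 over the B6.SLE123 mice, 165-fold lower (95% counting interval 80.0 to 412). Its neighbours were also called lower, by less: Ttc4 on one side had a log2 fold change of -0.44 (SE 0.05) and Acot11 on the other of -0.96 (SE 0.08). In the C57BL/6 mice Tceanc2 was measured at 33.9, 37.8, 35.4 and 36.3 CPM, and in the B6.SLE123 mice at 3.86, 5.32, 5.24 and 4.68 CPM. Tceanc2, a protein with a domain of the elongation factor TFIIS, was lower without overlap (log2 fold change -2.90, SE 0.09). The 4 C57BL/6 mice had 36.9, 33.8, 37.4 and 31.1 CPM of Ttc39a and the 4 B6.SLE123 mice had 86.3, 93, 66.7 and 63.6 CPM. Ttc39a, a tetratricopeptide repeat gene from 109406623 to 109444745, had the largest rise among members with at least 100 counts (log2 fold change 1.15, SE 0.12).

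Fggy, a carbohydrate kinase, was at 4.11 ± 0.346 CPM (SD, n = 4) and 1.35 ± 0.331 CPM (SD, n = 4) (log2 fold change -1.60, SE 0.18). Gm12689, a predicted gene, was at 2.04 ± 0.0904 CPM (SD, n = 4) and 0.608 ± 0.168 CPM (SD, n = 4) (log2 fold change -1.76, SE 0.21). Eqtn, a gene of the sperm acrosome, rested on 43 and 7 counts over the mice of each strain, 6.81-fold lower (95% counting interval 3.04 to 17.9). Mysm1, a histone H2A deubiquitinase that blood cell formation needs, was close between strains at 68.7 ± 3.78 CPM (SD, n = 4) and 72.5 ± 7.53 CPM (SD, n = 4). Mier1, a chromatin repressor, was at 125 ± 6.25 CPM (SD, n = 4) and 119.6 ± 4.96 CPM (SD, n = 4), and Alg6, an enzyme of N-glycosylation, at 11.4 ± 0.351 CPM (SD, n = 4) and 11.8 ± 0.527 CPM (SD, n = 4), and neither was called.

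By the outermost annotated starts, 7 pairs of members start head to head within 1000 bases of each other. Of these, 4 differed by under 0.5 on the log2 scale and 2 by over 1. Itgb3bp is in a pair under 0.5 by its outermost start. Its RefSeq promoter window, from 99829109 to 99829408, lies instead at the start of Efcab7 (log2 fold change 0.86, beside -0.07 for Itgb3bp). Wdr78 was at -2.18 and Mier1, whose start overlaps it by 166 bases, at -0.06. Tceanc2 was at -2.90 and Tmem59, with 718 bases of overlap, at -0.23. In the pair whose intervening bases are printed above, Prpf38a was at 0.27 and Orc1 at 1.13. Raver2 and Jak1 meet at their 3′ ends with 4 bases of overlap and were at -2.80 and -0.02. In all, exons of 22 members overlap another annotated gene, and the libraries were stranded but the strand setting of the counting was not stated, so reads in these overlaps are uncertain. Among the genes described above these are Caap1, Jun, Hook1, Nfia, Itgb3bp, Raver2, Jak1, Sgip1, Wdr78, Mier1, Acot11, Tceanc2, Tmem59, Yipf1, Orc1, Cc2d1b, Zfyve9, Nrd1 and Osbpl9. Among the 39 members that overlap no annotated gene, 9 were over 2-fold different, beside 12.0% of the 6238 such genes in the table.

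Within B6.SLE123 mice, replicates 3 and 4 had the higher summed levels of red pulp macrophage genes. Some members that were lower in this strain had the same order of mice, and so did lower genes across the table. Plpp3 was at 9.81, 8.49, 15.7 and 16.7 CPM in replicates 1 to 4, Raver2 at 1.74, 1.4, 2.52 and 2.76 CPM and Nfia at 2.37, 2.15, 2.75 and 2.76 CPM, examples chosen after their values were seen. Both of these mice lay above the other B6.SLE123 mice for 6 of the 15 members over 2-fold lower (40%) and for 9 of the 60 members not over 2-fold different (15%). Over the table the shares were 42.4% of the 1143 genes over 2-fold lower and 18.3% of all genes, so the order was not particular to the members. Mroh7, Wdr78 and Tceanc2 did not have this order. These shares describe 4 mice, and what the order comes from was not tested.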

How the data were processed

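RNA of CD11c-positive splenocytes was sequenced from stranded mRNA libraries. Cutadapt, STAR (mm10) and featureCounts were the tools with which the authors trimmed, aligned and counted reads, and their versions and the strand setting are not given in the sources used here. The deposited table holds raw counts per gene and mouse for 13786 protein-coding genes, and every gene has a median of 5 or more in the strain with the larger median. It also holds the authors' DESeq2 comparison, namely a mean normalised signal, a log2 fold change with its standard error, a test score, p-values and the fold change as a ratio, and none of these columns was used. Symbols turned into dates by a spreadsheet were restored for 21 genes.

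Counts were scaled by TMM and compared with the quasi-likelihood test of edgeR 4.0.16 in R 4.3.3, without a filter or block and with Benjamini-Hochberg adjustment over all genes. The test was checked on simulated data in which a small part of the genes, none with a low mean count, was changed. That check does not cover scarce members or data in which many genes are called. Each strain had 4 samples, and p-values set the strain difference against the spread between samples within the strains. Per-length levels are CPM divided by the exon length in GENCODE M21, in which 77 members have the same coordinates. Counting intervals are 95% exact intervals of a ratio of summed counts and cover counting error only. Pairs of samples within a strain differed by more than sampling noise, so each was kept as a replicate.

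Members, role lists, partner lists and marker lists were chosen with earlier results of these data known. Named were the 10 largest rises and falls among members called without overlap and averaging 100 or more counts in the higher strain, the 8 most abundant members, the 3 nearest each edge, and members of the role lists. No member met a further rule for genes with at most 3 counts in every mouse of one strain only. Others over 2-fold different were named after their values were seen. Some genes of the stretch are not reported by name here. Alternatives were relative log expression factors, a minimum of 10 counts in each sample, DESeq2 1.42.0, limma-voom (limma 3.58.1), a block for the replicate number, only genes that overlap no other, either 10 Mb alone, a 1.5-fold threshold and each mouse left out.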

Additional observations from a re-analysis of the deposited data

Results flagged for a closer look

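A mouse lay apart from the other 3 of its strain, by the ratio of its gap to the range of the group, in 3 of 64 groups examined for 32 named members, where chance alone flags about 1 in 20 groups, or 3.2 here. Orc1 was at 0.51 log2 CPM in C57BL/6 replicate 1, below the others at 1.19 to 1.29. Usp24 was at 6.96 log2 CPM in C57BL/6 replicate 4, below the others at 7.18 to 7.21. Plaa was at 6.41 log2 CPM in B6.SLE123 replicate 1, above the others at 6.29 to 6.31.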

How the results depend on the processing

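Counts of members stayed within 1.5 times of 47 called and 19 over 2-fold under relative log expression factors, DESeq2, limma-voom and a 1.5-fold threshold. With at least 10 counts in every sample, which left 65 members, 10 were over 2-fold, beside 8.17% of all such genes, and the median log2 fold change was 0.0336 against -0.002. Among the 39 members that overlap no other gene, 24 were called, beside 53.8% of all such genes, 9 were over 2-fold, beside 12.0%, 22 had no overlap between strains and the median was -0.0605. The first 10 Mb (23 members) gave 15 called, 7 over 2-fold, 12 without overlap and a median absolute log2 fold change of 0.445 against 0.271, and the second 10 Mb (56 members) gave 12 over 2-fold. In each of these settings fewer members entered.

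With each mouse removed in turn (8 fits), called members were from 43 to 47, those over 2-fold from 18 to 22, the median from -0.0351 to -0.00169, the median absolute log2 fold change from 0.245 to 0.308, members without overlap from 44 to 50 and the difference in the share of counts from -0.0208 to -0.0152 percentage points. Of 414 values for single members 405 kept their direction and side of the threshold. Near 0, Jak1 ranged from -0.0503 to 0.00054 and Rnf11 from -0.00076 to 0.10 with a mouse removed. Usp24 passed the threshold with limma-voom, with the replicate block and without C57BL/6 replicate 3.

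With the replicate block, 50 members were called, 19 were over 2-fold and the median was -0.003. Samples with the same number deviated together weakly (correlations 0.024, 0.071, -0.029 and 0.115), 2 of 4 correlated best with their own number, and the numbers were not taken to pair mice. Members with few counts, such as Tek and Eqtn, are limited by depth.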
